A study of Mus musculus with 25 samples.

Results

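Cluster 9 of the deposited annotation is a group of macrophage-lineage cells from the injured mouse spinal cord that carries the working name Gpnmb Fabp4 foamy-like macrophages. Its members are the cells with the code 9 in the authors' cluster column, joined by barcode to the count matrix of each library. They number 3554 of 30958 cells, or 11.5% of the series, and all 3554 carry the cell type code 2, of which they form 27.7% of 12841 cells. Membership was set by clustering on expression, so differences between cluster 9 and other cells are given as a description and were not tested.

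The study dissected 5 mm of spinal cord lesion, removed myelin, sorted myeloid cells and sequenced them in droplets with a 3′ kit, in 25 libraries of tissue from 1 to 3 mice each. Libraries were taken at 1, 2, 3, 10 and 21 days after spinal cord injury (D1 to D21) or after laminectomy alone (control). Mice of the strain Cx3cr1CreERT2 gave 12 libraries sorted as YFP+, whose titles name resident and infiltrating cells together ("mixed"). Mice of the strain Cx3cr1CreERT2:R26tdTomato gave 7 libraries titled infiltrating and sorted as RFP-/YFP+, 5 titled resident and sorted as RFP+/YFP+, and 1 at D3 titled infiltrating but labelled RFP+/YFP+ ("conflicting labels"). All mice thus carried Cre in the Cx3cr1 gene, which is active in microglia and in monocyte-derived cells. The time points held 5 (D1), 4 (D2), 7 (D3), 5 (D10) and 2 (D21) libraries, beside 2 controls, with both sexes among them. The series' design text lists 1, 3, 10 and 21 days and leaves out D2, which the labels of 4 libraries give and which is used here as labelled. Nothing in the labels says whether libraries of one group came from separate operations, so p-values measure the spread between these libraries.

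Foamy macrophages are phagocytes that have taken up more lipid than they have exported or broken down, and in the injured cord the main lipid source is myelin debris. Fatty acid binding proteins such as Fabp4 and Fabp5 carry fatty acids inside the cell, while Apoe and the transporters Abca1 and Abcg1 carry cholesterol out of it. Gpnmb is a membrane glycoprotein induced in lipid-loaded and lysosome-stressed phagocytes, and Trem2 is a surface receptor for lipids.

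Cluster 9 cells came from 18 of the 25 libraries, and 2676 of them came from the D3 mixed library 3 alone, which leaves 878 cells elsewhere. Only 9 libraries held at least 20 cluster 9 cells, the minimum used for summing counts. Those 9 were D1 infiltrating 1 (52 cells), D2 resident 1 (29), D3 with conflicting labels (90), D3 infiltrating 1 (61), D3 mixed 3 (2676), D10 infiltrating 1 (432), D10 infiltrating 2 (28), D10 resident 1 (109) and D21 infiltrating 1 (29). Neither control library held any cell of type 2. The median cluster 9 cell had 7117 UMIs (unique molecular identifiers, each 1 counted transcript), between 965 and 34011, against 9907 in the other type 2 cells. Within these 9 libraries the order was the reverse, except in D2 resident 1 (4718 against 8151) and D3 infiltrating 1 (8203 against 10839). The medians were 19549 against 11435 in D1 infiltrating 1 and 7035 against 2852 in D10 infiltrating 2. They were 8695 against 2466 in D10 resident 1 and 5082 against 3107 at D21. Of all cells, 0.820% shared a barcode with a cell of another library. That was true of 29 cluster 9 cells, and no pair of libraries shared more than 4 barcodes.

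Cluster 9 was rare among type 2 cells at D1 and made up most of them in 3 later libraries. At D1 it was 4.10% in infiltrating library 1 (exact 95% binomial interval 3.08 to 5.34), 0.106% in infiltrating library 2, and 0 of 28, 0 of 12 and 0 of 54 cells in the mixed libraries. For 0 of 54 cells, 3 counts correspond to 5.56%, and the exact interval reaches 6.60%. At D2 the shares were 0.419% in the infiltrating library, 15.7% in the resident library, and 10.1% and 0.155% in the mixed libraries. At D3 the share was 88.6% (87.5 to 89.7) in mixed library 3, while the infiltrating library had 3.76%, the library with conflicting labels 3.80%, and the resident libraries 10.0% and 11.4%. The other two mixed D3 libraries held too few type 2 cells to read. Thus 1 library of 5 with at least 20 type 2 cells stood far above the others at D3.

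At D10 the shares were 78.7% (75.0 to 82.0) in infiltrating library 1, 81.3% (73.7 to 87.5) in resident library 1, 24.1% in infiltrating library 2, and 18.9% and 14.7% in the mixed libraries. The 2 libraries with high shares were both female and carry 1 sequencing code (SLX) in the annotation, and the 3 with low shares were all male and carry another, so sex and that code cannot be told apart. At D21 the share was 32.6% in the infiltrating and 3.85% in the mixed library. Over libraries with at least 20 type 2 cells, the median share was 0.053% on day 1 and 5.28% on day 2, 10.0% for D3, and stood at 24.1% for D10 and 18.2% for D21. The ranges overlapped between D2, D3, D10 and D21, and no test of shares was made. Intervals cover counting error only, and in sorted cells a share also depends on the gate.

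**Figure D1:**
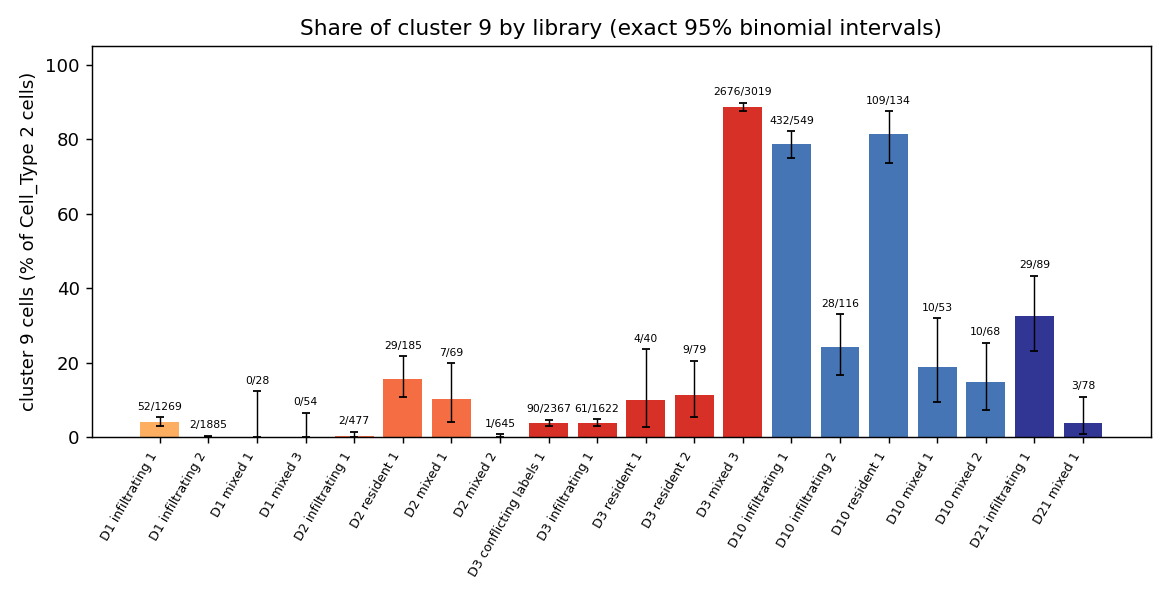
Share of cluster 9 among type 2 cells in each library with at least 20 such cells, in percent; bars are single libraries coloured by time point, error bars are exact 95% binomial intervals, and the fractions give cells. The D3 mixed library 3 reached 88.6%, and at D10 the shares ran from 14.7% to 81.3%.

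Of the 6 genes in the label, Gpnmb and Apoe were higher in cluster 9 than in the other type 2 cells of the same library in 9 of 9 libraries, and Fabp4 was not. In GRCm38 coordinates these protein-coding genes lie at chr6:49036546-49070929 (Gpnmb, plus strand), chr7:19696109-19699188 (Apoe, minus), chr3:10012548-10016607 (Fabp5, plus), chr3:10204088-10208576 (Fabp4, minus), chr1:86099026-86111970 (Htr2b, minus) and chr4:105157347-105232764 (Plpp3, plus). Levels are UMIs of a gene scaled to a fixed library total (CPM) summed over the cells of a library, and ratios are log2 differences of CPM after adding 5.

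Gpnmb in cluster 9 was 2042 CPM at D1, 1474 in the D2 resident library, 3669, 1236 and 5044 in the D3 libraries with conflicting labels, infiltrating and mixed, 2070, 1750 and 4480 in the D10 infiltrating 1, infiltrating 2 and resident libraries, and 824 at D21. The other type 2 cells of those libraries held 538, 1256, 871, 1082, 1754, 1001, 1020, 3331 and 214 CPM in the same order. The mean log2 ratio was 1.12 ± 0.76 (SD, n = 9), with the smallest gaps in the D2 resident and D3 infiltrating libraries.

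Apoe, the apolipoprotein that carries cholesterol out of phagocytes, was 9277 CPM in cluster 9 of the D1 library and 25331 CPM in the D2 library. It was 30410, 38729 and 31659 CPM in the D3 libraries in the order above, 125659, 103691 and 132244 CPM in those of D10, and 98466 CPM in the last one. Its mean log2 ratio to the other cells was 1.55 ± 0.64 (SD, n = 9). The 4 late libraries lay above the 5 early ones.

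Fabp5 reached 14732 CPM in the D3 mixed library and 639 CPM at D21, and exceeded the other cells in 8 of 9 libraries (mean log2 ratio 0.74 ± 0.76, SD, n = 9). Fabp4 ran from 6.39 to 499 CPM in cluster 9 and from 19.9 to 204 CPM in the other cells. It was higher in cluster 9 in only 4 of 9 libraries, with a mean log2 ratio of 0.09 ± 1.81 (SD, n = 9). Those 4 were D1 infiltrating 1, the D3 libraries with conflicting labels and mixed 3, and D10 resident 1. Among the rest, cluster 9 held only 2 Fabp4 UMIs in D2 resident 1, 4 in D10 infiltrating 2 and 1 at D21, too few to read. It held 37 in D3 infiltrating 1 and 237 in D10 infiltrating 1. Htr2b, a serotonin receptor, was higher in 8 of 9 libraries (1.51 ± 1.23), and Plpp3, a lipid phosphatase, in 7 of 9 (1.06 ± 1.31), both below 100 CPM throughout. The name "Fabp4" therefore held in some libraries and not in others, and the cells are called cluster 9 here.

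**Figure D2:**
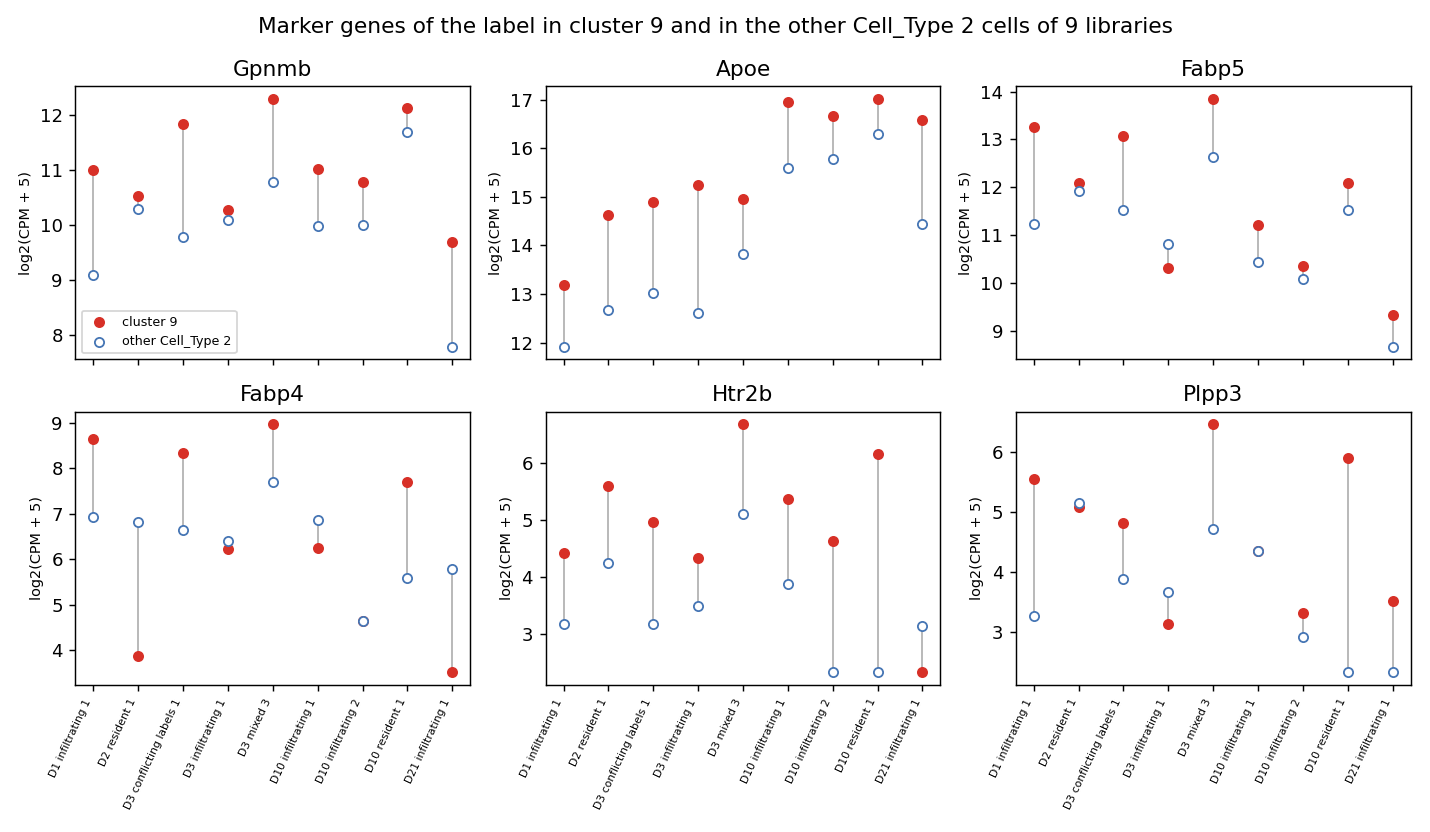
Level of the 6 label genes in cluster 9 (filled red) and in the other type 2 cells (open blue) of the same library, as log2(CPM + 5), 1 pair for each of 9 libraries. Gpnmb and Apoe lie above the open points in all 9, and Fabp4 in 4 of 9.

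The share of single cells with a Gpnmb UMI went the other way from the summed level in 2 libraries. After thinning each cell to 1000 UMIs, Gpnmb was seen in 95% of cluster 9 cells of D3 mixed 3, the library that holds most of the cluster, in 83.3% of cluster 9 cells of the D3 library with conflicting labels, 81.7% of the D10 resident library and 71.2% at D1. In the D10 infiltrating libraries it was seen in 59.1% and 53.6%, and at D21 in 37.9%. It was seen in 10.7% of the D2 resident library and 23.0% of the D3 infiltrating library, below the 30.3% and 31.8% of the other type 2 cells there. Without thinning those 2 libraries gave 17.2% and 39.3% in cluster 9, at median depths of 4718 and 8203 UMIs, and 41.0% and 46% in the other type 2 cells, at 8151 and 10839 UMIs. In neutrophil-like cells (deposited cluster 16), which should lack the gene, the thinned shares were 3.26% in D1 infiltrating 1 and 10.0% in the D3 library with conflicting labels, at median depths of 2330 and 2223 UMIs. The other libraries, those with the low shares among them, held under 20 such cells, so their own background was not measured. In the D2 resident and D3 infiltrating libraries the cluster 9 cells with a Gpnmb UMI were thus a minority.

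The other type 2 cells were not of 1 kind. In the D1 to D3 libraries among these 9 they were mainly clusters 8, 11, 12 and 14, except in D3 mixed 3. There cluster 8 (134 cells) and cluster 10 (107) led and cluster 14 had none. At D10 and D21 they were mainly cluster 3, followed by cluster 13 in the D10 infiltrating libraries (36 and 13 cells). The D10 resident library had none of cluster 13, and D21 had 9 cells of cluster 10 and 8 of cluster 13. Against cluster 8 alone, in 5 early libraries, Gpnmb was higher by 1.34, Apoe by 1.54 and Fabp5 by 1.12 on the log2 scale in 5 of 5, and Fabp4 by 1.06 in 4 of 5. Against the cluster 3 cells of type 2, in 4 late libraries, the mean differences were -0.01 for Gpnmb, 0.00 for Apoe and -0.29 for Fabp5, and Htr2b was higher by 1.27 in 3 of 4.

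Among 3027 genes with a mean of at least 50 CPM in cluster 9 or the other cells, 59 had a mean at least 2-fold higher in cluster 9 and 158 a mean at least 2-fold lower. In every one of 9 libraries, 14 of them (0.463%) were higher and 59 (1.95%) lower, and the median over all 3027 was -0.10 on the log2 scale. Because cluster membership was set on these genes, nothing is read from the counts. Among genes higher in every library, the highest were Tmcc3 (1.95 ± 1.68), Mertk (1.77 ± 1.39), a receptor that binds apoptotic cells, and Sash1 (1.56 ± 1.54). Apoe, Itga6 (1.49 ± 0.96) and Trem2 (1.39 ± 0.81) came next. They were followed by Pnpla7, Tspan4, Wwp1, Adgre1 (the F4/80 antigen), the myelin lipid hydrolase Galc (1.20 ± 0.97) and Gpnmb. The remaining genes of the 20 highest were Gpx3, Lair1, Tmem37, Hvcn1, Aga, Man1c1 and Ctss, the lysosomal protease cathepsin S, beside an unnamed transcript. The lowest 10 among those lower in every library were S100a4 (-3.48 ± 2.32), S100a6 (-3.30 ± 2.75), Pclaf, Hist1h2ae, Top2a, Isg15 (-2.86 ± 1.23), Ifi205, Ifit3, Hist1h2ap and Ccl6, which include replication and interferon-induced genes (all ± SD, n = 9).

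By group, lists with positive median log2 ratios, beside that of the label genes, included microglial markers (1.20), TREM2-linked genes (0.73), macrophage markers (0.55), lysosomal genes (0.47) and cholesterol export genes (0.41), against -0.10 over all genes. Of 13 expressed genes linked to TREM2 signalling, 3 were at least 2-fold higher on average and higher in every library (Apoe, Trem2 and Gpnmb). Apoe and Gpnmb are also label genes, and Apoe is in the macrophage marker and cholesterol export lists too, so these lists are not separate results. The growth factor list had a median of 0.70 over the 4 of 12 genes with at least 50 CPM but 0.08 over all 12, its summed level was 569 CPM in cluster 9 and 611 CPM in the other cells, and Igf1 was higher by 1.55 in 8 of 9. Border macrophage markers had a median of 0.56 over 3 of 8 genes, and their summed level was higher in cluster 9 in 3 of 9 libraries. Of 30 lysosomal genes none passed that rule. Their summed level was higher in cluster 9 in 7 of 9 libraries, the exceptions being D2 resident 1 and D10 resident 1, with Hexa and Ctsh higher in 9 of 9 and the protease Ctsd higher by 1.00 in 8 of 9. The cholesterol exporter Abca1 was higher by 1.07 in 8 of 9 libraries. The list of uptake receptors had a median of 0.35 over 11 of 17 genes, and its summed level was higher in cluster 9 in 8 of 9 libraries. Its members divided: Mertk was higher in 9 of 9, whereas the scavenger receptor Msr1 was lower in 9 of 9 (-0.85) and Cd36 in 6 of 9. The fatty acid binding and lipid droplet list had a median of 0.20 and no gene past the rule in either direction.

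By median ratio, genes of monocytes, interferon response, chemokines and antigen presentation lay below. The monocyte list had a median of -2.40 over 12 genes, with Plac8 (-5.15) and Ly6c2 (-3.36) lower in 8 of 9 and at 0 CPM in both groups of the D10 resident library. The list's summed level did not lie below: it was 26165 CPM in cluster 9 and 24668 CPM in the other cells on average, and higher in 5 of 9 libraries. Lyz2, a lysozyme that macrophages also make, held 24665 and 18946 CPM of those sums. The 8 genes of the list that also served as monocyte markers, without Lyz2, summed to 557 and 2762 CPM and were higher in 1 of 9. The median was -1.98 over 10 interferon-stimulated genes, -1.45 over 12 chemokine ligands and -2.18 over 6 genes of MHC class II, which presents peptides to helper T cells. The class II genes were higher in cluster 9 in 3 of 9 libraries, namely the D2 resident, D3 infiltrating and D21 infiltrating ones.

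**Figure D3:**
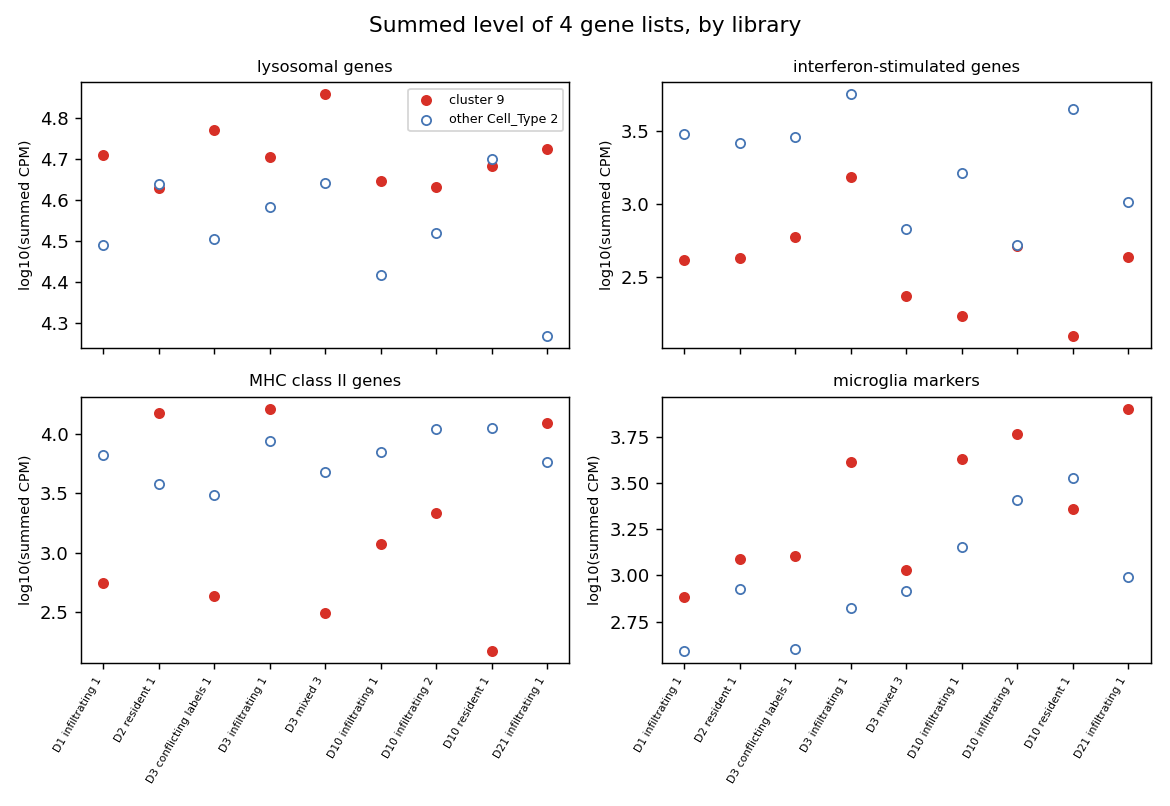
Summed level of 4 gene lists in cluster 9 (filled red) and the other type 2 cells (open blue), as log10 of summed CPM, for each of 9 libraries. Interferon-stimulated genes lay below the other cells, and class II genes varied between libraries.

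Microglial markers summed to more in cluster 9 than in the other type 2 cells in 8 of 9 libraries, with means of 3209 and 1274 CPM. Its defining members differed. Sall1, which marks microglia, was between 0 and 5 CPM and Siglech between 0 and 24 CPM. P2ry12 ran from 0 to 140 CPM, against 3590 and 1420 CPM in control microglia, and had a UMI in 48.3% of the cells at D21. Tmem119 was 12.2 to 28.0 CPM in 4 of the 5 early libraries and 100.2 CPM in the D3 infiltrating one. It was 131, 335 and 52.7 CPM in the D10 infiltrating 1, infiltrating 2 and resident libraries and 313 CPM at D21, against 1544 and 1519 CPM in control microglia. A Tmem119 UMI was present in 48.8%, 60.7% and 75.9% of the cells of D10 infiltrating 1, D10 infiltrating 2 and the D21 library, and after thinning to 1000 UMIs in 15.6%, 28.6% and 31.0%. Gpr34, a lysophospholipid receptor, was 296 CPM in D10 infiltrating 2 and 377 CPM at D21. P2ry12, Tmem119 and Gpr34 were thus highest in 2 of the late libraries, each with under 30 cluster 9 cells. The microglial list as a whole summed to 766 CPM at D1 and 7969 CPM at D21, with 4153 CPM in the D3 infiltrating library and 2296 to 5855 CPM at D10. In that library and in the late ones Cx3cr1 and Fcrls were also higher than in the other D1 to D3 libraries, with the exception of Fcrls in the D2 resident library (459 CPM). Border macrophage markers summed to 1252 CPM at D1, 2407 CPM in the D2 resident library, 564, 314 and 1013 CPM in the D3 libraries with conflicting labels, infiltrating and mixed, between 82.7 and 118 CPM at D10 and 179 CPM at D21. How far such cells account for the values above was not tested.

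Within cluster 9, apolipoprotein genes were higher and monocyte-type genes lower at D10 than at D1 to D3. These are comparisons of 3 D10 with 5 early library sums. Of the 3, D10 infiltrating 1 and D10 resident 1 are the RFP-/YFP+ and RFP+/YFP+ sorts of 1 strain, sex and SLX code. The labels used here do not give whether they came from the same mice, so they may not be separate replicates. Of 2977 genes with at least 50 CPM, 54 (1.81%) were at least 2-fold higher at D10 with no overlap between libraries and 76 (2.55%) lower, and the median over all was -0.15. The libraries differ in sex, sort and SLX code as well as time.

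Apoe was 120531 ± 14952 CPM at D10 (SD, n = 3) and 27081 ± 11043 CPM at D1 to D3 (SD, n = 5), a mean log2 difference of 2.29. The apolipoprotein Apoc4 lay between 166 and 176 CPM at D10 and between 1.02 and 20.3 CPM before, and was 377 CPM at D21. Apoc1 lay between 69.0 and 306 CPM at D10 and 4.79 and 43.5 CPM before. Together with Abca1 these were the 4 of 10 expressed genes of cholesterol export that were higher at D10 without overlap. Trem2 was 2068 to 2400 CPM at D10 and 517 to 1804 CPM before. Other high genes were the peptidase Cpq (2.32), the Ras activator Rasgrp3 (2.32) and Ccrl2.

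Among the genes that were lower at D10, S100a6, a calcium-binding protein, lay between 19.7 and 34.4 CPM at D10 and between 68.0 and 1921 CPM before. The chemokine Pf4 lay between 17.2 and 29.6 CPM and between 176 and 1015 CPM in turn. S100a4, Chil3, Ly6c2, Cd36, Cfp, Ly6a and Ccl9 were also lower without overlap. Of 8 expressed monocyte genes, 5 were lower at D10 and none higher. Pf4 is also one of the border macrophage markers, of which 2 of 3 expressed ones were lower without overlap (median -1.87), while microglial markers had a median of 2.17 with none past the rule. The part of either cell type in the change was not tested.

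Gpnmb (2693 ± 1621 CPM early, 2767 ± 1493 CPM at D10) and Htr2b (39.6 ± 34.1 and 40.5 ± 23.5) had nearly the same means in both groups. Fabp5 was 7754 ± 5181 CPM early and 2666 ± 1538 CPM at D10, with overlap. Spp1, the secreted protein osteopontin, was 32533 to 103452 CPM in 4 early libraries, 1714 CPM in the D3 infiltrating library and 4918 to 12991 CPM at D10.

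**Figure D4:**
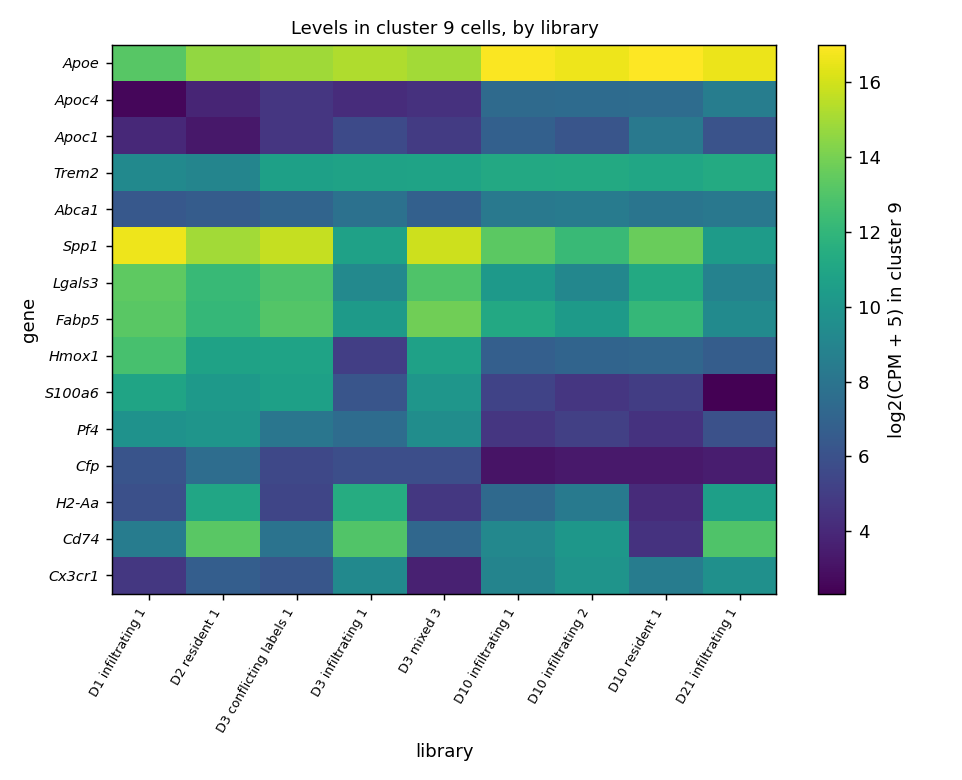
Level of 15 genes in cluster 9 by library, as log2(CPM + 5) on a colour scale. Apoe and Apoc4 are brighter in the D10 and D21 columns, and the D3 infiltrating column departs from the other D3 columns for Spp1, Hmox1, H2-Aa and Cd74.

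The D3 infiltrating library stood apart from the other early ones. Hmox1, the heme-degrading enzyme, was 28.3 CPM there and 1680 to 6906 CPM in the other 4 early libraries. Ccl2 was at 0 there and 337 to 3134 CPM in the others. Cd74 was 8427 CPM there, 9605 CPM in the D2 resident library and 144 to 355 CPM in the other 3.

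The test over libraries called no gene in cluster 9. With edgeR's quasi-likelihood test on the 6 infiltrating or mixed sums with at least 20 cells (8285 genes, 2 residual degrees of freedom), 0.00% were called for D10 against D1 to D3, D1 or D3, or for D21 against D10 (Benjamini-Hochberg adjusted p under 0.05). The D1 and the D21 arm each held 1 library, whose spread was taken to be that of the other groups, and the D1 to D3 arm held 1 D1 and 2 D3 libraries and none from D2. At an unadjusted p under 0.05 there were 652, 731, 247 and 114 genes, and DESeq2 called 30, 51, 3 and 0. Apoe had a fitted log2 change of 2.57 ± 0.31 (SE) for D10 against D1 to D3, with an edgeR adjusted p of 0.076. The result hung on the pair of D3 libraries: edgeR called 2256 genes without D3 infiltrating 1 and 609 without D3 mixed 3 for D10 against D1 to D3. Of these, 509 were called both times (22.6% of the first and 83.6% of the second), 501 with the same sign. With all 9 sums, 3 genes (0.0327% of 9171) were called: Apoe (2.54 ± 0.28) and Apoc4 (4.83 ± 0.47) higher and Cfp, the complement factor properdin (-4.14 ± 0.45), lower, each at an edgeR adjusted p of 0.031. No gene was called from these sums without D1 infiltrating 1 or without D10 infiltrating 2, while 1080 were called without D3 infiltrating 1 and 106 without D3 mixed 3.

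Counts were also summed over all type 2 cells, whatever their cluster, by a code that is itself a deposited label. Cluster 9 is part of these sums. It held 19726065 of 22068469 UMIs in D3 mixed 3 and 3314454 of 4035558 in D10 infiltrating 1. By edgeR, 1413 of 8577 genes (16.5%) changed between D1 to D3 (9 libraries) and D10 (4 libraries), 788 (9.19%) higher and 625 (7.29%) lower. These calls did not hold once the SLX code entered the fit. That term could be fitted only with the resident libraries added, where 1 gene was called for D10 against D1 to D3, Hcar2 (7.96 ± 1.10, SE, edgeR adjusted p = 0.022), a receptor named here after its value was seen. In that fit 1 SLX code held both D10 and early libraries, and it held 1 early library, D2 resident 1. Lost calls did not always go with smaller changes. Over 31 alternatives, the fits with the SLX term among them, Hmox1 ran from -4.55 to -3.79 and Apoc4 from 3.38 to 6.41. In contrast, Pdcd4 ran from 0.35 to 4.64, and some called genes, named below, turned sign. In what follows, rose and fell refer to the fit without the SLX term. Here a change in the mix of cells and a change within cells cannot be told apart. Of the 6 label genes, Apoe rose by 2.60 ± 0.51 (SE, edgeR adjusted p = 0.0049; 3.50 and edgeR adjusted p = 0.87 with the SLX term) and Fabp5 passed narrowly (-2.25 ± 0.72, SE, edgeR adjusted p = 0.047). The Fabp5 call was lost in 21 of 31 alternatives, with values from -3.36 to -0.35. Among them, it was -1.33 without D3 mixed 3 and -0.35 from infiltrating libraries alone. Gpnmb (-0.13 ± 0.64), Htr2b (-0.18 ± 0.83), Plpp3 (-1.55 ± 0.82) and Fabp4 (-1.94 ± 0.76) did not pass. From infiltrating libraries alone (7 libraries, 1 residual degree of freedom) Gpnmb (1.81, edgeR adjusted p = 0.0017) and Htr2b (2.14, edgeR adjusted p = 0.010) passed in the opposite direction, higher at D10. From mixed libraries alone Plpp3 (-2.85, edgeR adjusted p = 0.0082) and Fabp4 (-2.22, edgeR adjusted p = 0.0059) passed as lower. Fabp4 also passed as lower with no expression filter and without D3 infiltrating 1.

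Of the cholesterol export genes, 4 of 15 rose by edgeR, Apoc4 (5.30 ± 0.57) and Apoc1 (2.85 ± 0.51) among them, and 2 fell, including the sterol-sensing receptor Nr1h3 (-2.82 ± 0.51). Chemokine ligands fell in 11 of 17 and rose in none, with Ccl7 (-8.29 ± 0.84) and Ccl2 (-6.14 ± 0.72) among them. Heme and iron genes fell in 8 of 14, Hmox1 by 4.38 on the log2 scale. Cell cycle genes rose in 12 of 16, although in cluster 9 they summed to 122 CPM on average against 781 CPM in the other type 2 cells. Microglial markers rose in 6 of 8, and their part in these changes was not tested. The 10 genes that rose most among those with no overlap were Gpr34, Klrb1f, Apoc4, BC035044, Igfbp4, Hist1h4h, Ighm, Pdcd4, Cd79b and Tmem176b, of which Ighm and Cd79b are B cell genes. With resident libraries and the SLX term, BC035044 (-1.93), Igfbp4 (-2.43), Ighm (-2.20) and Cd79b (-0.29) turned negative. Among the 10 that fell most were Cxcl3, Flrt3, Sphk1, Cxcl2, Sdc1, Ccl7, Ccl24, Thbs1 and Ccl2. Of 31 alternatives, 9 lost the call of Cxcl3, 9 that of Cxcl2 and 9 that of Ccl24, each time including the fits with the SLX term, without D3 infiltrating 1 or without any 1 of the 4 D10 libraries. The call of Flrt3 was lost in 4 and that of Klrb1f in 3. Between D1 and D10 alone, 1231 genes (14.4%) changed, 627 (7.31%) higher and 604 (7.04%) lower by edgeR, and with resident libraries and the SLX term 1 gene was called, again Hcar2.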

How the data were processed

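Per the submitters' processing notes, the authors used Cell Ranger 3.1.0 with GRCm38/mm10. The deposited matrices hold UMI counts per gene and cell, and the deposited annotation gives cluster and cell type codes, each cell's total count and its mitochondrial percent, as the authors computed them. Counts of a library's cluster 9, other type 2 or all type 2 cells were summed where at least 20 cells were present. The library was the replicate. Sums were scaled to CPM, and 5 CPM was added before taking log2. Tests used edgeR 4.0.16 (TMM scaling, quasi-likelihood, Benjamini-Hochberg) with DESeq2 1.42.0 as an alternative, in R 4.3.3, and were tested on simulated data. Main fits used infiltrating and mixed libraries; the type 2 fit had a sex term. The cluster 9 fit had none. The members and gene lists were chosen with earlier results of these data known. Genes were named if they were label genes, list examples, or among the 20 highest and 10 lowest ratios (at least 50 CPM, same sign in every library), or the 10 highest and lowest changes (at least 20 CPM, no overlap). For the 10 highest and lowest within cluster 9, the change in CPM stood in for a call. Spp1, Hmox1, Ccl2, Cd74, Igf1 and the genes named for the library that stood apart were chosen after their values were seen. How doublets were treated by the authors is not given in the sources used here. No doublet caller was run; an alternative left out cells above the 95th percentile of UMIs in their library and cluster. X-inactivation, Y-linked and reporter genes were not analysed here. Some genes that the naming rule selects are not reported here.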

Additional observations from a re-analysis of the deposited data

Results flagged for a closer look

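The share of cluster 9 among type 2 cells at D3 was 88.6% in mixed library 3, far from the other 4 libraries, which lay between 3.76% and 11.4%. At D1, infiltrating library 1 had 4.10% and the other 3 libraries between 0% and 0.106%. The threshold used for such gaps is itself passed by chance in about 1 in 20 groups. The label genes' levels in cluster 9 at D1 to D3, and in all type 2 cells at D1 and D10, gave no such library.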

How the results depend on the processing

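No paired analysis was possible because, for cluster 9, only 1 mixed library had enough cells, and for all type 2 cells the D1 and D10 mixed libraries that entered shared only the replicate number 1, while the numbers of the infiltrating libraries were given in accession order. A term for the SLX code could not be fitted in any contrast with the main libraries, nor within cluster 9 with others added. In all type 2 cells it could be fitted with resident libraries, or resident and conflicting ones, added, a pair of fits chosen after seeing the data. D10 against D1 then gave 1 and 0 genes by edgeR (425 and 402 at an unadjusted p under 0.05), and D10 against D1 to D3 gave 1 and 1. For the calls within cluster 9, where the main count was 0 in each contrast, D10 against D1 gave 51 genes by DESeq2, 184 with no expression filter, 1 with at least 10 cells, 24 with at least 50 cells, 9 with a sex term, 1628 with a sort term, 1605 from infiltrating libraries alone and 1 at equal depth. D10 against D3 gave 3 by DESeq2, 42 with no filter, 389 with a sort term, 390 from infiltrating libraries alone and 1 at equal depth. D10 against D1 to D3 gave 30 by DESeq2, 174 with no filter, 17 and 19 with at least 10 and 50 cells, 53 with a sex term, 604 with a sort term, 609 from infiltrating libraries alone, 3 with the resident libraries added, 3 with the resident and conflicting libraries added and 1 at equal depth. D21 against D10 gave 2 with no filter, 11 with a sort term and 14 from infiltrating libraries alone. Leaving out 1 library at a time gave 0 to 1605, 0 to 1789, 0 to 2256 and 0 to 14 genes in these 4 contrasts. The high values came without D3 infiltrating 1 (1566, 1789, 2256 and 11) or without D3 mixed 3 (1605, 390, 609 and 14), and why was not tested. D3 mixed 3 was the only mixed sum, so the fit from infiltrating libraries alone is the fit without it, and the sort term is set by that 1 library: these are 1 choice, not 3.

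With the resident and conflicting libraries added, leaving out D3 infiltrating 1 gave 1140, 1289, 1080 and 3 genes in the same order. Leaving out D3 mixed 3 gave 57, 18 and 106 in the first 3 of them. For D10 against D1 to D3, leaving out D2 resident 1 gave 6, D3 with conflicting labels 3, D10 infiltrating 1 gave 2, D10 resident 1 gave 2 and D21 infiltrating 1 gave 3; none was called without D1 infiltrating 1 or without D10 infiltrating 2. The sex term, the joint addition of the resident and conflicting libraries, and the comparison with cluster 3 cells were chosen after seeing the data. For all type 2 cells, D10 against D1 gave 1934 with resident libraries added, 2107 with the conflicting library as well and 668 at equal depth (of 4713 genes tested there, 14.2%), and leaving out 1 library gave 376 (without D1 infiltrating 2) to 1635. It gave 646 without D10 mixed 1 and 716 without D10 mixed 2. D10 against D1 to D3 gave 2260, 2574 and 777 (16.5% of the 4713) for the same settings, and 740 (without D10 mixed 1) to 1862, with 894 without D2 mixed 2 and 799 without D10 mixed 2.

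Of single genes, signs that reversed were those of label genes that did not pass the test, of Mertk and Trem2, and of 4 called genes with the SLX term. Within cluster 9, D10 minus D1 to D3 on the log2 scale, Gpnmb turned to 0.38 with a sort term, 0.39 from infiltrating libraries alone, 0.35 with resident and 0.12 with resident and conflicting libraries added, and ran from -0.98 to 0.39 with 1 library left out. Htr2b turned to 0.10 with at least 50 cells, 1.22 with a sort term, 1.23 from infiltrating libraries alone, 0.28 with resident and 0.49 with resident and conflicting libraries added and 0.61 at equal depth (-1.11 to 1.23 with 1 left out). Plpp3 turned to 0.33 with a sort term and 0.31 from infiltrating libraries alone (-3.51 to 0.31). In all type 2 cells Gpnmb turned to 0.026 with a sort term, 1.81 from infiltrating libraries alone, 0.39 with resident and 0.56 with both kinds added (-0.55 to 0.53). Htr2b turned to 0.016 with no sex term, 0.36 with a sort term, 2.14 from infiltrating libraries alone, 0.57, 0.10 and 0.86 with resident, conflicting or both libraries added, and 0.057 at equal depth (-0.69 to 1.01). From infiltrating libraries alone Plpp3 turned to 0.63 and Mertk to 0.49, and from mixed libraries alone Trem2 turned to -0.63. With the SLX term and resident, or resident and conflicting, libraries, signs turned for Htr2b (0.19 and 0.25), Plpp3 (0.84 and 0.92), Mertk (2.00 and 2.06), BC035044 (-1.93 and -1.88), Igfbp4 (-2.43 and -2.44), Ighm (-2.20 and -2.58) and Cd79b (-0.29 and -0.28). Apoe stayed higher at D10 in every alternative run, from 1.82 to 2.84 within cluster 9 and from 1.24 to 4.04 in all type 2 cells.

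Against the other type 2 cells, 59 genes had a mean at least 2-fold higher and 158 lower. Pooling the libraries gave 100 and 514, cluster 8 alone 22 and 75, and the cluster 3 cells alone 675 and 11, where Gpnmb turned to -0.0091. Leaving out 1 library gave 33 (without D21 infiltrating 1) to 79 and 149 to 173.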
